A study of Homo sapiens with 8 samples.

Results

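The 9 genes described here encode transcription factors that set or restrain the myeloid lineage: SPI1, CEBPA, CEBPB, CEBPE, KLF4, GFI1, MYB, RUNX1 and MYC. They were taken by gene symbol from a table of 60664 genes, and each symbol matched 1 row. RNA-seq had been run on THP-1, a human acute monocytic leukemia cell line with a KMT2A rearrangement, and on THP-1 cells that had become resistant to decitabine (DAC). DAC is a cytidine analogue that is built into DNA and traps DNA methyltransferases, so that methylation is lost as cells divide. Each cell line was treated with the solvent DMSO or with 1 µM DAC for 6 days. That gave 4 groups of 2 libraries: parental cells with DMSO, parental cells with DAC, DAC-resistant cells with DMSO and DAC-resistant cells with DAC. All 8 samples carry the genotype label WT, and only the sample titles separate the resistant from the parental cells. The resistant cells were obtained by the authors through repeated cycles of DAC exposure and recovery, and no source used here describes more than 1 such selection of THP-1. Any difference between the cell lines therefore belongs to this selected population, and what DAC selected cannot be told apart from what time in culture changed.

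Commitment of a blood progenitor to monocytes or granulocytes depends on a small set of DNA-binding proteins. PU.1, the product of SPI1, and the C/EBP proteins switch on receptors, enzymes and granule contents of myeloid cells, and RUNX1 opens many of the same genes earlier in the lineage. GFI1 is a repressor that favours the granulocytic over the monocytic branch, in part by opposing PU.1. MYB and MYC keep progenitors and leukemic blasts dividing, and both are normally turned down when myeloid cells mature.

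The libraries were similar in depth. The library totals used for scaling ran from 27480502 to 31916835 reads, and the 2 libraries of parental cells with DAC had the lowest (27493581 and 27480502). The same 2 libraries had the most genes above 0 (30957 and 30999, against 26069 to 27437 in the other 6). Values are FPKM, that is reads divided by the length of the gene and by the total of the library, so levels of different genes can be set side by side. All 9 genes had whole reads behind every value, from 9 reads for CEBPE in 1 resistant DAC library to 14222 for GFI1. For CEBPE, GFI1, MYB and MYC the gene length that gave whole reads differed from that in GENCODE release 44 (1191 against 1764 bases for CEBPE, 5069 against 5642 for GFI1, 5500 against 5497 for MYB and 4584 against 6109 for MYC), which bears on comparisons between genes and not on those between libraries. These are bulk RNA levels, in which fewer cells of a kind and less RNA per cell cannot be told apart.

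Monocytic identity was checked with 11 marker genes. Between 8 and 11 of them reached 1 FPKM in each library, and PTPRC, the pan-leukocyte antigen CD45, was at 32.2 to 59.0 FPKM. CD14, the monocyte co-receptor for lipopolysaccharide, was low in parental cells with DMSO (1.45 and 1.58 FPKM) and in the 4 resistant libraries (0.7497 to 1.37). CD68, a lysosomal protein of macrophages, did not pass 1.53 FPKM in any library. Defining markers of other blood lineages were at or near 0: GYPB of red cells and PF4 and PPBP of platelets were at 0 in all 8 libraries, and the summed level of the T cell markers did not pass 0.737 FPKM.

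In parental cells with DMSO, SPI1 had the highest level of the 9 genes (102 ± 0.142 FPKM, SD, n = 2), above 98.3% of the genes tested. CEBPA followed at 80.7 ± 3.16 FPKM. GFI1 (64.3 ± 1.53 FPKM) and MYB (64.2 ± 3.01 FPKM) came next, and their levels differed by less than their spread. MYC (32.1 ± 0.968 FPKM), CEBPB (27.0 ± 0.270 FPKM) and RUNX1 (14.9 ± 0.125 FPKM) formed the middle of the order. KLF4 (3.96 ± 0.0240 FPKM) and CEBPE (1.25 ± 0.116 FPKM) were lowest. In resistant cells with DMSO the order at the top changed, with CEBPA (88.5 ± 6.19 FPKM) and GFI1 (88.4 ± 0.702 FPKM) closer to each other than their spread and both above SPI1 (69.9 ± 3.47 FPKM).

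**Figure D1:**
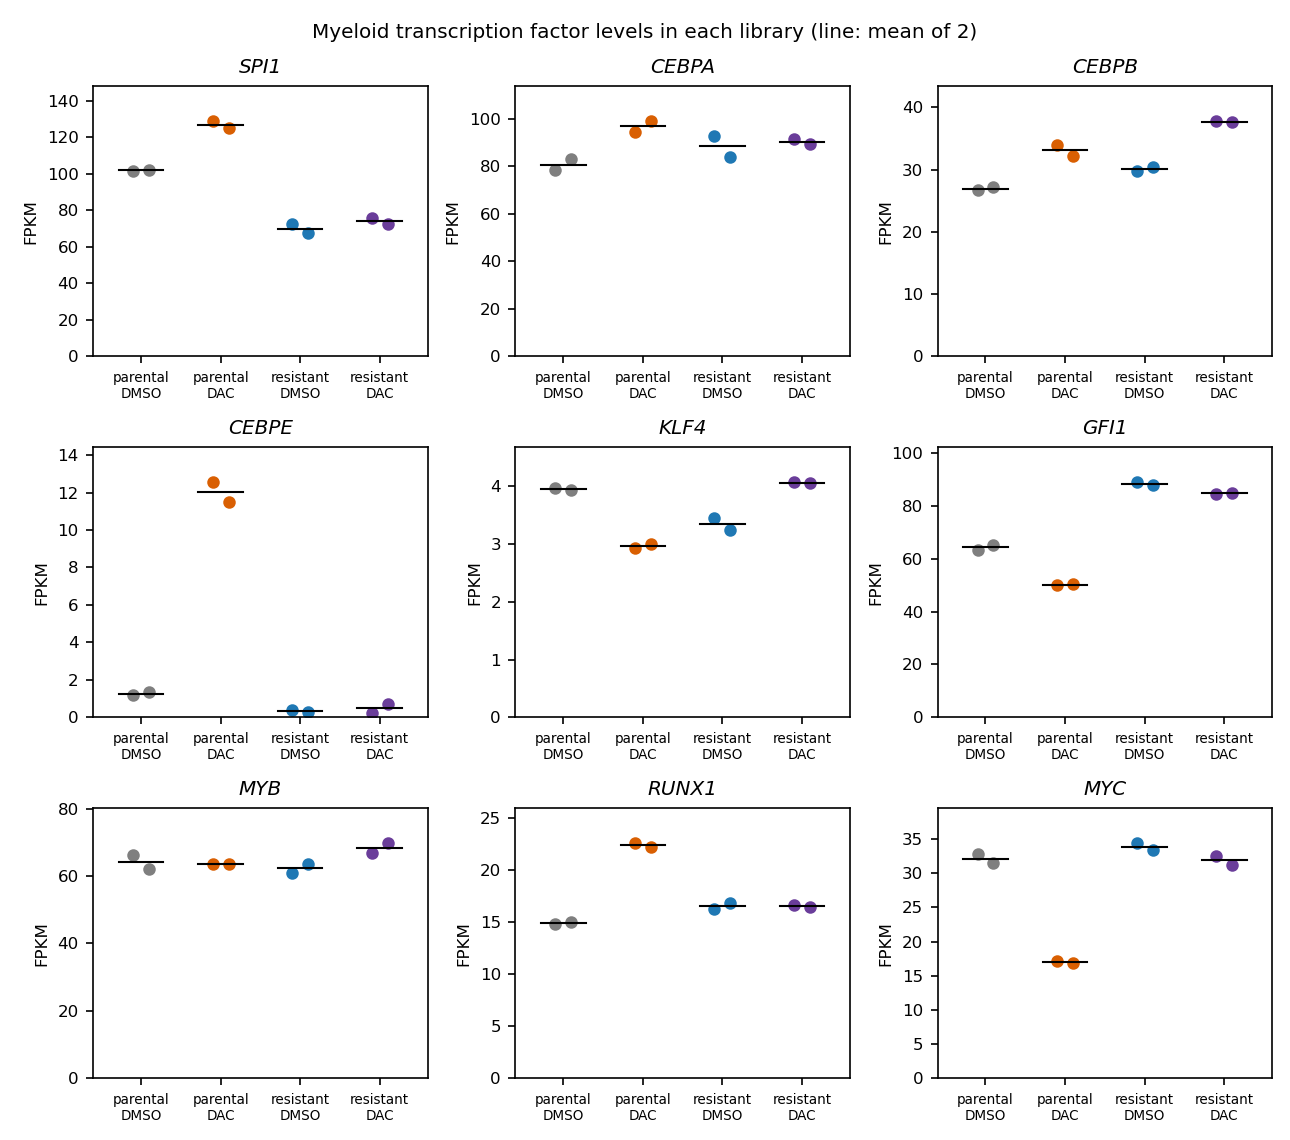
Level of each of the 9 transcription factor genes in FPKM (vertical axes, starting at 0) in the 8 libraries, by group. Points are libraries and the line is the mean of 2. CEBPE lies at 11.5 and 12.6 FPKM in parental cells with DAC and at 1.33 FPKM or less in the other 6 libraries, MYC is lowest and RUNX1 highest in that group, and GFI1 is higher in all 4 resistant libraries than in the 4 parental ones.

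The first comparison asked what DAC did to these genes in parental cells. With DAC, 5 of the 9 genes rose (SPI1, CEBPA, CEBPB, CEBPE and RUNX1), 3 fell (KLF4, GFI1 and MYC), and MYB did not pass the test, which was an adjusted p under 0.05 from limma over all 14899 genes with enough signal. Among all those genes 33.6% rose and 24.1% fell. The median log2 fold change was 0.26 over the 9 genes and 0.06 over all genes tested, and the median size of the change was 0.32 against 0.31. Stricter 2-fold thresholds were also applied, a change of 1 or more on the log2 scale in either direction with an unadjusted p not above 0.01. They follow the limits of the authors' volcano plots, for which no source used here says whether p was adjusted. These called CEBPE alone among the 9, and 9.31% of all genes. Log2 fold changes are of FPKM + 1 throughout.

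CEBPE, the C/EBP family member that acts late in granulocyte maturation and is needed for secondary granules, had the largest change. It lies on chromosome 14 (ENSG00000092067, chr14:23117036-23120256, minus strand, hg38). Its level was 1.17 and 1.33 FPKM in parental cells with DMSO, from 44 and 48 reads, and 12.6 and 11.5 FPKM with DAC, from 411 and 376 reads. The groups did not overlap, and the mean with DAC was 9.64 times that with DMSO. On the log2 scale the change was 2.53 (standard error 0.15, adjusted p = 2.34e-05), larger in size than for 99% of the genes tested. The added 1 understates the change of so low a gene, which was 3.17 with 0.1 added instead.

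The windows just upstream of the start sites are shown because CpG is where DNA methyltransferases, which DAC traps, add methyl groups. No methylation was measured in these libraries, and whether CpG content has a part in any change was not tested. RefSeq windows (GRCh38.p14, 250 bases upstream of the start, read 5′ to 3′ on the strand of the gene, CpG in capitals) were at hand for 7 of the 9 genes, among them CEBPE (chr14:23119256-23119505, minus strand), CEBPA (chr19:33302535-33302784, minus strand) and RUNX1 (chr21:34888700-34888949, minus strand). None of these 3 windows overlaps an annotated exon, and those of CEBPE and RUNX1 lie in introns of longer transcripts of the same genes.
CEBPE: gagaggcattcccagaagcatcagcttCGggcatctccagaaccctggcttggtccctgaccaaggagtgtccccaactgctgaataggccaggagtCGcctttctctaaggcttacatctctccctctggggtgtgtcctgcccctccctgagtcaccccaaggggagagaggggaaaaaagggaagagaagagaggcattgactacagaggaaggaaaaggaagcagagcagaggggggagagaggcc
CEBPA: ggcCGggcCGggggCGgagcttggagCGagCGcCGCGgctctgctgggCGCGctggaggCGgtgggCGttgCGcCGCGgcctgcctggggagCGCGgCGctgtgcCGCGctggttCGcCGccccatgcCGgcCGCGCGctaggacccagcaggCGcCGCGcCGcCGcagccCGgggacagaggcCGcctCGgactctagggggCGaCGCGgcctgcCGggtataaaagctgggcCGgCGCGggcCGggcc
RUNX1: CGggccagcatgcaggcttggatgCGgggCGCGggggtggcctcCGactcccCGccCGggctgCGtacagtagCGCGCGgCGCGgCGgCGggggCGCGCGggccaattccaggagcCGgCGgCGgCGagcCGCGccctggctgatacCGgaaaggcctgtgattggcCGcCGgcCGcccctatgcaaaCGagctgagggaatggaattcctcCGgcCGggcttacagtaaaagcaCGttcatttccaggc

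The CEBPE window holds 2 CpG, at 223 and 153 bases upstream, where the median over 35116 windows was 11, and 14.7% of windows hold fewer. The CEBPA window holds 41 CpG and the RUNX1 window 32, more than 98.3% and 90.5% of windows. The other windows were between these, with 16 to 19 CpG in the 3 windows of GFI1, 25 for KLF4, 25 and 38 in the 2 windows of CEBPB, and 34 for MYB. Short motifs were searched on both strands. The PU.1 core GAGGAA, found in 23.6% of all windows, stands at 41 to 36 bases upstream in CEBPE and, on the opposite strand, at 44 to 39 in RUNX1. The AP-1 motif TGANTCA (6.57% of windows) stands at 100 to 94 bases upstream in CEBPE, and a TATAAA (10.7%) at 30 to 25 in CEBPA. The C/EBP motif TTGCNNAA (9.05%), the RUNX motif TGTGGT (11%) and the E-box CACGTG (6.34%), which MYC binds, have no match in these 3 windows. Matches were not limited to genes that rose. A PU.1 core also stands in the window of KLF4, beside an E-box, and in 1 window of GFI1, another window of GFI1 holds a C/EBP and a RUNX match, and 1 window of CEBPB a TATAAA. A match of a few letters is a description of the sequence and not a bound site.

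SPI1 encodes PU.1, the main activator of the monocytic programme (ENSG00000066336, chr11:47354860-47378547, minus strand). Its level went from 102 FPKM in both DMSO libraries to 129 and 125 FPKM with DAC, without overlap. The log2 fold change was 0.31 (standard error 0.040, adjusted p = 0.000627), a rise of 24.5% in mean FPKM and a change of middling size among all genes (larger than 50.7% of them). It was 0.20 under upper-quartile scaling and 0.48 under quantile normalization.

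CEBPA (ENSG00000245848, chr19:33299934-33302534, minus strand, 1 exon) drives the step from common to granulocyte and monocyte progenitors, and CEBPB (ENSG00000172216, chr20:50190830-50192668, plus strand, 1 exon) serves inflammatory and emergency myelopoiesis. CEBPA went from 78.4 and 82.9 FPKM to 94.6 and 99.0 FPKM with DAC (log2 fold change 0.26, standard error 0.053, adjusted p = 0.00538). CEBPB went from 26.8 and 27.2 FPKM to 34.0 and 32.2 FPKM (0.29, standard error 0.033, adjusted p = 0.000412). In both genes the 2 DAC libraries lay above both DMSO libraries. Under upper-quartile scaling the changes were 0.14 for CEBPA (adjusted p = 0.042) and 0.17 for CEBPB (0.005). As CEBPE rose far more, its share of the summed FPKM of the 3 genes went from 1.10% and 1.19% to 8.89% and 8.05%.

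RUNX1 encodes the DNA-binding subunit of core binding factor (ENSG00000159216, chr21:34787801-36004667, minus strand). It rose from 14.8 and 15.0 FPKM to 22.6 and 22.2 FPKM, a rise of 50.1% in the mean (log2 fold change 0.56, standard error 0.032, adjusted p = 1.89e-05).

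KLF4, a zinc finger factor that promotes monocyte differentiation (ENSG00000136826, chr9:107484852-107490482, minus strand), moved the other way from the activators above. It fell from 3.98 and 3.94 FPKM to 2.94 and 3.001 FPKM (log2 fold change -0.32, standard error 0.054, adjusted p = 0.00235). GFI1, the repressor (ENSG00000162676, chr1:92473043-92486925, minus strand), fell from 63.2 and 65.3 FPKM to 50.04 and 50.26 FPKM (-0.35, standard error 0.024, adjusted p = 4.06e-05). With SPI1 higher and GFI1 lower, the ratio of SPI1 to GFI1 FPKM went from 1.61 and 1.56 to 2.58 and 2.49.

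MYC, which drives ribosome production and cell growth (ENSG00000136997, chr8:127735434-127742951, plus strand), had the largest fall. Its level was 32.8 and 31.4 FPKM with DMSO and 17.1 and 16.9 FPKM with DAC, a drop of 47.0% in the mean. The log2 fold change was -0.88 (standard error 0.036, adjusted p = 3.9e-06), larger in size than for 87.3% of genes. MYB, a factor on which progenitors and KMT2A-rearranged blasts depend (ENSG00000118513, chr6:135181308-135219173, plus strand), was at 66.3 and 62.1 FPKM with DMSO and at 63.5 and 63.6 FPKM with DAC. Its groups overlapped, and the log2 fold change was -0.01 (95% confidence interval -0.11 to 0.08, adjusted p = 0.79).

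The second comparison put the same question to DAC-resistant cells. CEBPB alone rose with DAC, none of the 9 fell, and 8 did not pass the test. Over all genes, 5.88% rose and 5.35% fell, and 0.235% were called by the 2-fold thresholds, which none of the 9 met. These shares rest on 876 and 797 genes and depend on the fit. In both directions together, 434 genes passed with only the libraries compared, and 2951 with voom on recovered reads. The median size of the change was 0.09 over the 9 genes and 0.11 over all genes.

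CEBPB went from 29.8 and 30.4 FPKM to 37.8 and 37.7 FPKM in resistant cells, without overlap (log2 fold change 0.32, standard error 0.033, adjusted p = 0.0034). That was larger in size than the change of 88.5% of genes in this comparison. KLF4 was next, at 3.45 and 3.25 FPKM with DMSO and 4.07 and 4.06 FPKM with DAC, and its log2 fold change of 0.22 (95% confidence interval 0.09 to 0.35) missed the threshold with an adjusted p of 0.0501. It passed with FPKM rescaled to TPM (adjusted p = 0.042).

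SPI1 was at 72.4 and 67.4 FPKM with DMSO and at 76.1 and 72.8 FPKM with DAC (log2 fold change 0.09, interval -0.005 to 0.18, adjusted p = 0.208). CEBPA, with 92.9 and 84.1 against 91.4 and 89.4 FPKM, and RUNX1, with 16.2 and 16.8 against 16.7 and 16.4 FPKM, had overlapping groups. CEBPA differed by 0.03 and RUNX1 by 0.00 on the log2 scale (adjusted p = 0.763 and 0.974). GFI1 (88.9 and 87.9 against 84.5 and 84.9 FPKM) and MYC (34.4 and 33.4 against 32.5 and 31.2 FPKM) were lower in both DAC libraries, by -0.06 and -0.09 on the log2 scale (adjusted p = 0.172 and 0.186). MYB was at 61.0 and 63.6 FPKM with DMSO and at 66.7 and 69.7 FPKM with DAC (0.13, adjusted p = 0.101), and it passed the test when voom was run on the recovered reads (adjusted p = 0.0049), with a mean of at least 5 FPKM (0.047) and with TPM (0.048).

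CEBPE was at 0.372 and 0.307 FPKM in resistant cells with DMSO, from 14 and 11 reads, and at 0.237 and 0.713 FPKM with DAC, from 9 and 26 reads. The groups overlapped. The log2 fold change was 0.12, with an interval from -0.25 to 0.49 (adjusted p = 0.688), which does not reach the change seen in parental cells, and the value turned to -0.12 without the higher DAC library (replicate 2).

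The change with DAC in resistant cells minus that in parental cells was then tested as a value of its own. It passed for 7 of the 9 genes, higher in resistant cells for KLF4, GFI1 and MYC and lower for SPI1, CEBPA, CEBPE and RUNX1. Over all genes, the difference was higher for 20.9% and lower for 28.4%, and 10.6% met the 2-fold thresholds, among the 9 genes CEBPE alone. The difference was -2.41 for CEBPE (standard error 0.22, adjusted p = 0.000209), 0.79 for MYC (0.050 and 4.6e-05, in the same order), -0.55 for RUNX1 (0.046 and 0.000143), 0.54 for KLF4 (0.076 and 0.00145) and 0.29 for GFI1 (0.034 and 0.000663). Among these 7 genes KLF4 was the one with changes of opposite sign, -0.32 in parental and 0.22 in resistant cells, where only the first passed.

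SPI1 (-0.22, standard error 0.056, adjusted p = 0.016) and CEBPA (-0.23, standard error 0.074, adjusted p = 0.0417) were nearer to the threshold. The CEBPA difference did not pass with no filter on low values (adjusted p = 0.11), with FPKM rescaled to TPM (0.12), under upper-quartile scaling (-0.12, adjusted p = 0.19) or with the replicate block (0.065). It also did not pass on leaving out any 1 library other than parental DMSO replicate 2 or resistant DMSO replicate 2 (0.065 to 0.13). That of SPI1 was -0.40 under quantile normalization, and it did not pass under upper-quartile scaling (-0.12, adjusted p = 0.12), without parental DAC replicate 1 (0.058) or without resistant DAC replicate 2 (0.052). CEBPB, the gene that rose in both lines, differed by 0.03 (95% confidence interval -0.08 to 0.14, adjusted p = 0.613). The difference for MYB was 0.14 (adjusted p = 0.0822), and it passed with TPM (0.20, adjusted p = 0.024), under upper-quartile scaling (0.25, adjusted p = 0.014), with voom (0.012) and without parental DMSO replicate 2 (0.036).

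**Figure D2:**
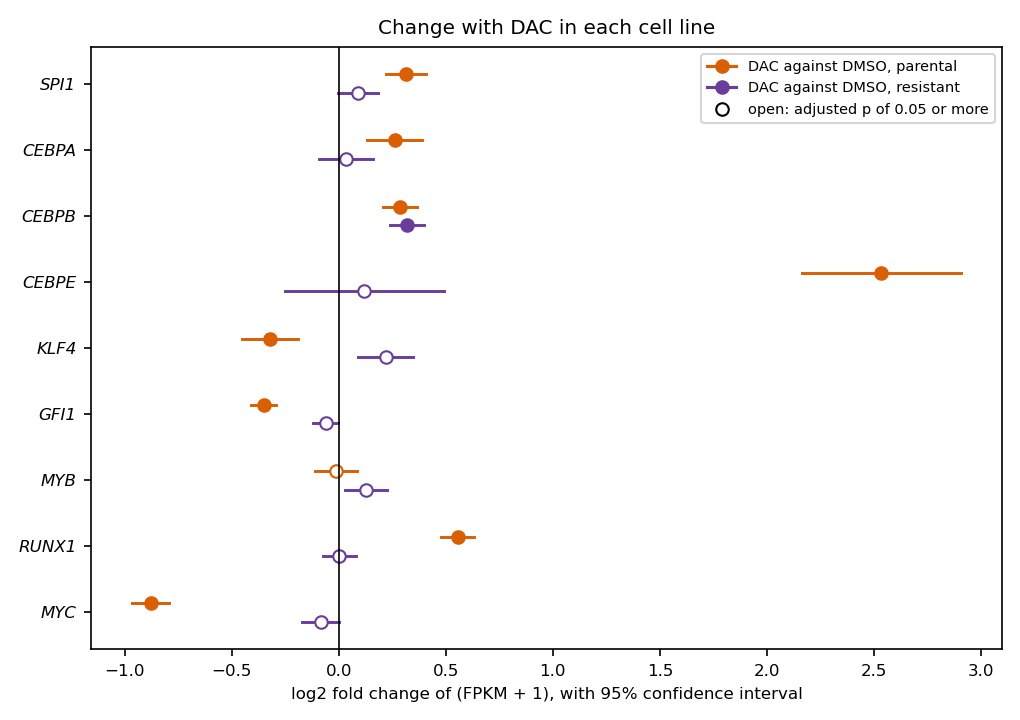
Log2 fold change of FPKM + 1 with DAC against DMSO (horizontal axis) for each gene in parental cells (orange) and DAC-resistant cells (purple). Bars are 95% confidence intervals and open points have an adjusted p of 0.05 or more. CEBPB has similar values in both lines (0.29 and 0.32), while CEBPE (2.53 and 0.12), RUNX1 (0.56 and 0.00) and MYC (-0.88 and -0.09) do not.

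The third comparison set resistant against parental cells, both with DMSO. It shares the parental DMSO libraries with the DAC effect in parental cells, so the values of the 2 comparisons are not independent. Of the 9 genes, CEBPB, GFI1 and RUNX1 were higher in resistant cells, SPI1, CEBPE and KLF4 were lower, and CEBPA, MYB and MYC did not pass. Over all genes 31.3% were higher and 26.2% lower, and 8.73% met the 2-fold thresholds, which none of the 9 did. The median size of the change was 0.15 over the 9 genes and 0.31 over all genes.

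SPI1 was 102 FPKM in both parental libraries and 72.4 and 67.4 FPKM in the resistant ones, a drop of 31.4% in the mean (log2 fold change -0.54, standard error 0.040, adjusted p = 5.37e-05). GFI1 was 63.2 and 65.3 FPKM in parental and 88.9 and 87.9 FPKM in resistant cells, 1.38 times the parental mean (0.45, standard error 0.024, adjusted p = 1.39e-05). For both genes the cell lines did not overlap, with or without DAC. The ratio of SPI1 to GFI1 FPKM was accordingly 0.814 and 0.767 in resistant cells with DMSO, below 1 as in the 2 resistant libraries with DAC (0.900 and 0.857), and above 1.5 in all 4 parental libraries. Where the ratio lies relative to 1 depends on the gene lengths used, which for GFI1 was 5069 and not the annotated 5642 bases.

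CEBPE was lower in resistant cells with DMSO, at 0.372 and 0.307 FPKM against 1.17 and 1.33 FPKM. The parental mean was 3.67 times the resistant one. On the log2 scale the difference was -0.75 (standard error 0.15, adjusted p = 0.00597), which understates that ratio because 1 FPKM was added. With 0.1 added it was -1.62, with TPM -1.24 and with voom -1.84.

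The remaining changes were small. CEBPB (0.15, adjusted p = 0.00718) and RUNX1 (0.14, adjusted p = 0.00953) were higher, but neither passed under quantile normalization (changes of 0.05 and 0.04, adjusted p = 0.25 and 0.29) or upper-quartile scaling (0.06 and 0.05, adjusted p = 0.19 and 0.27). RUNX1 was 0.22 with TPM and did not pass without resistant DMSO replicate 2 (0.056). KLF4 (-0.19, adjusted p = 0.0221) was lower, and did not pass with FPKM rescaled to TPM (0.083), with only the 4 libraries compared (0.071), with voom (0.084), or without either parental DMSO library or resistant DMSO replicate 2 (0.074 to 0.11). CEBPA was 0.13 higher (adjusted p = 0.0725) and passed with TPM (0.021), with voom (0.01), with a mean of at least 5 FPKM (0.042) and without resistant DMSO replicate 2 (0.017). MYC was 0.07 higher (adjusted p = 0.116, interval -0.01 to 0.16) and passed with TPM (0.15, adjusted p = 0.013). MYB was 0.04 lower (adjusted p = 0.423, interval -0.14 to 0.06) and passed under quantile normalization (-0.15, adjusted p = 0.036) and upper-quartile scaling (-0.14, adjusted p = 0.032).

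The last comparison set the cell lines against each other in the presence of DAC. CEBPB, KLF4, GFI1 and MYC were higher in resistant cells, SPI1, CEBPE and RUNX1 were lower, and CEBPA and MYB did not pass. Over all genes 32.0% were higher and 35.1% lower, and 14.5% met the 2-fold thresholds, as CEBPE did.

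Here CEBPE had 25.3 times as much FPKM in parental as in resistant cells (log2 fold change -3.16, standard error 0.15, adjusted p = 5.21e-06), larger in size than the change of 99.3% of genes, and it was -4.84 with voom. The resistant level rests on 9 and 26 reads, and the ratio was 16.9 without resistant DAC replicate 1 and 50.8 without replicate 2. MYC was at 32.5 and 31.2 FPKM in resistant and 17.1 and 16.9 FPKM in parental cells (0.87, adjusted p = 2.43e-06). SPI1 differed by -0.76 (adjusted p = 6.79e-06), GFI1 by 0.74 (adjusted p = 9.89e-07), RUNX1 by -0.41 (adjusted p = 4.46e-05), KLF4 by 0.35 (adjusted p = 0.0012) and CEBPB by 0.18 (adjusted p = 0.00247). With TPM the last 2 were 0.54 and 0.31. CEBPA (-0.10, adjusted p = 0.143) and MYB (0.10, adjusted p = 0.0649) did not pass. With voom, which called 10176 of 14785 genes here, all 9 did, CEBPA with an adjusted p of 0.022 and MYB of 0.016. CEBPA was also called under quantile normalization (-0.27, adjusted p = 0.0027), and MYB with TPM (0.23, adjusted p = 0.002), with a mean of at least 5 FPKM (0.046) and with only the 4 libraries compared (0.048).

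**Figure D3:**
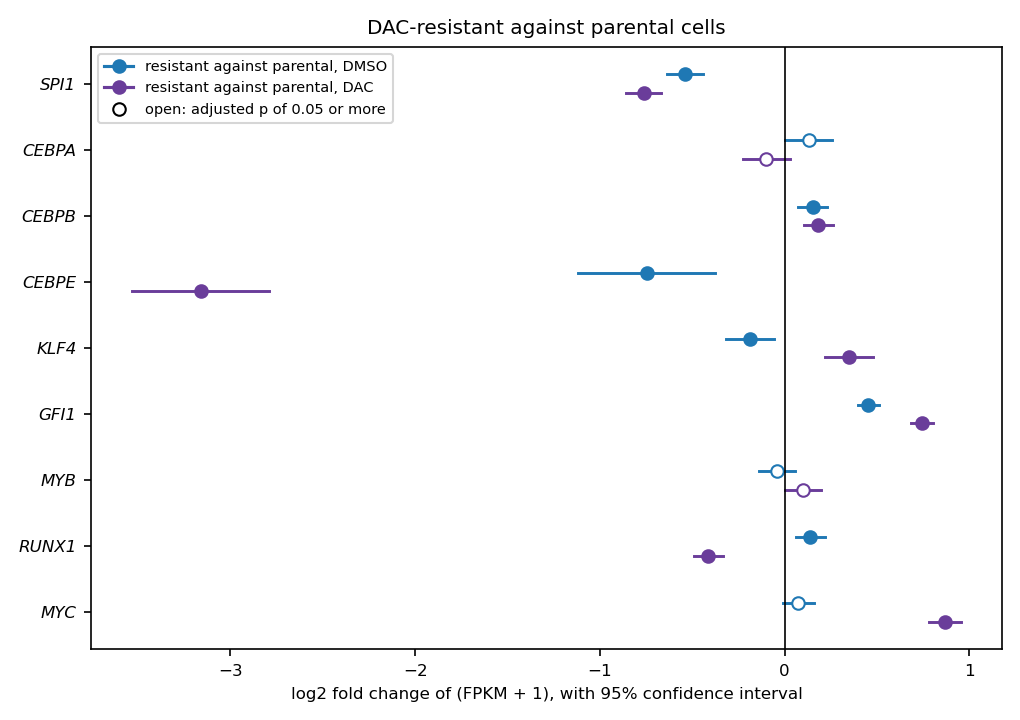
Log2 fold change of FPKM + 1 in DAC-resistant against parental cells (horizontal axis), with DMSO (blue) and with DAC (purple). Bars are 95% confidence intervals and open points have an adjusted p of 0.05 or more. SPI1 and CEBPE are lower and GFI1 higher in resistant cells under both treatments, MYC differs with DAC only by this test (0.87 against 0.07), and RUNX1 and KLF4 change sign between treatments.

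**Figure D4:**
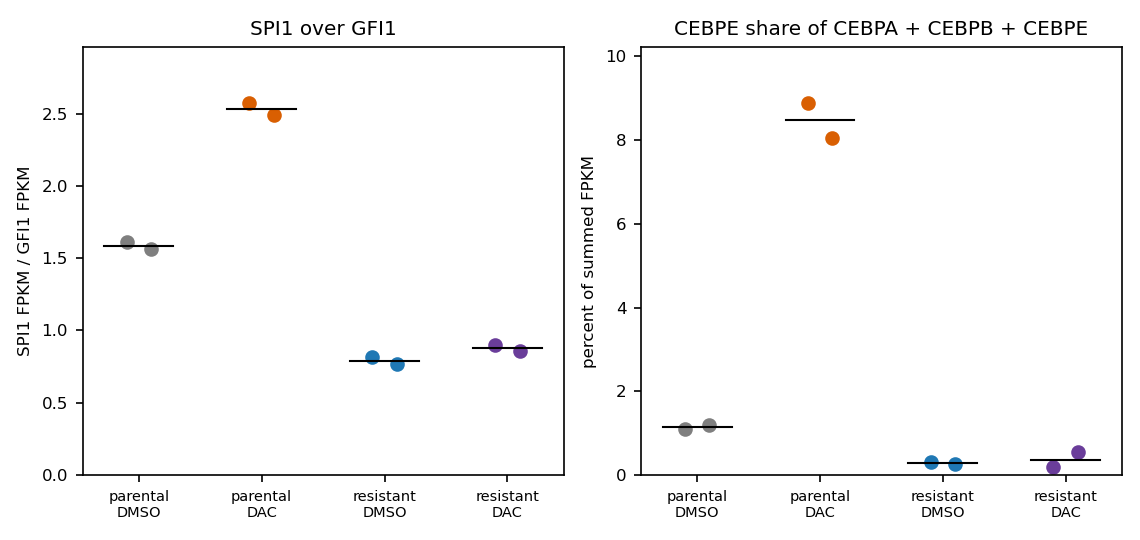
Ratio of SPI1 to GFI1 FPKM (left) and CEBPE as a percent of the summed FPKM of CEBPA, CEBPB and CEBPE (right) in each library, with the mean of 2 as a line. Both are highest in parental cells with DAC, at 2.58 and 2.49 for the ratio and 8.89% and 8.05% for the share, and lowest in the resistant groups.

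Genes of the same pathways were described from lists written from general knowledge. PU.1 activates genes for surface receptors, the phagocyte oxidase and lysozyme. Of 18 such genes 17 were tested, and with DAC in parental cells 14 rose and 3 fell, with a median log2 fold change of 0.69. For this and the lists after it, the shares of all genes that rose or fell in each comparison are those given above, and the medians over all genes were 0.06 (DAC, parental), 0.01 (DAC, resistant), 0.02 (cell lines with DMSO) and -0.03 (cell lines with DAC). IL1B, a pro-inflammatory cytokine among the 14, went from 0.402 to 10.9 FPKM. It met the filter through parental cells with DAC alone, so selection set its direction before the test. Of the other genes, the largest rises were in CD14 (1.52 to 19.9 FPKM, log2 fold change 3.05, adjusted p = 5.4e-06) and NCF1, an oxidase subunit (8.49 to 52.6 FPKM, 2.50, adjusted p = 4.8e-06). NCF1 has near-identical pseudogene copies and CSF2RA lies in a region shared by the X and Y chromosomes, so their levels are uncertain. The 3 that fell were the cytokine receptors CSF3R (-0.87) and CSF2RA (-0.57) and the lipoprotein receptor SCARB1 (-0.25).

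In resistant cells DAC raised 3 of the 17 PU.1 genes and lowered 3, with a median of -0.05. CYBB, the catalytic oxidase subunit (0.57), and CSF2RA (0.42) were among those higher, and those lower were NCF4 (-0.28), SCARB1 (-0.22) and BTK (-0.19). Between the cell lines with DMSO, 10 of the 17 were lower in resistant cells, 3 were higher and 4 did not pass, with a median of -0.46. CSF2RA was at 14.02 in parental and 2.81 FPKM in resistant cells (-1.98, adjusted p = 1.9e-06), the integrin ITGAM at 6.40 and 1.80 FPKM (-1.404, adjusted p = 1.2e-05) and NCF4 at 109 and 41.0 FPKM (-1.39, adjusted p = 2e-06). ITGB2, the partner of ITGAM, was higher at 162 against 93.6 FPKM (0.79, adjusted p = 6.9e-06), as were NCF1 (0.58) and SCARB1 (0.53). With DAC, 15 were lower in resistant cells and 2 higher.

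**Figure D5:**
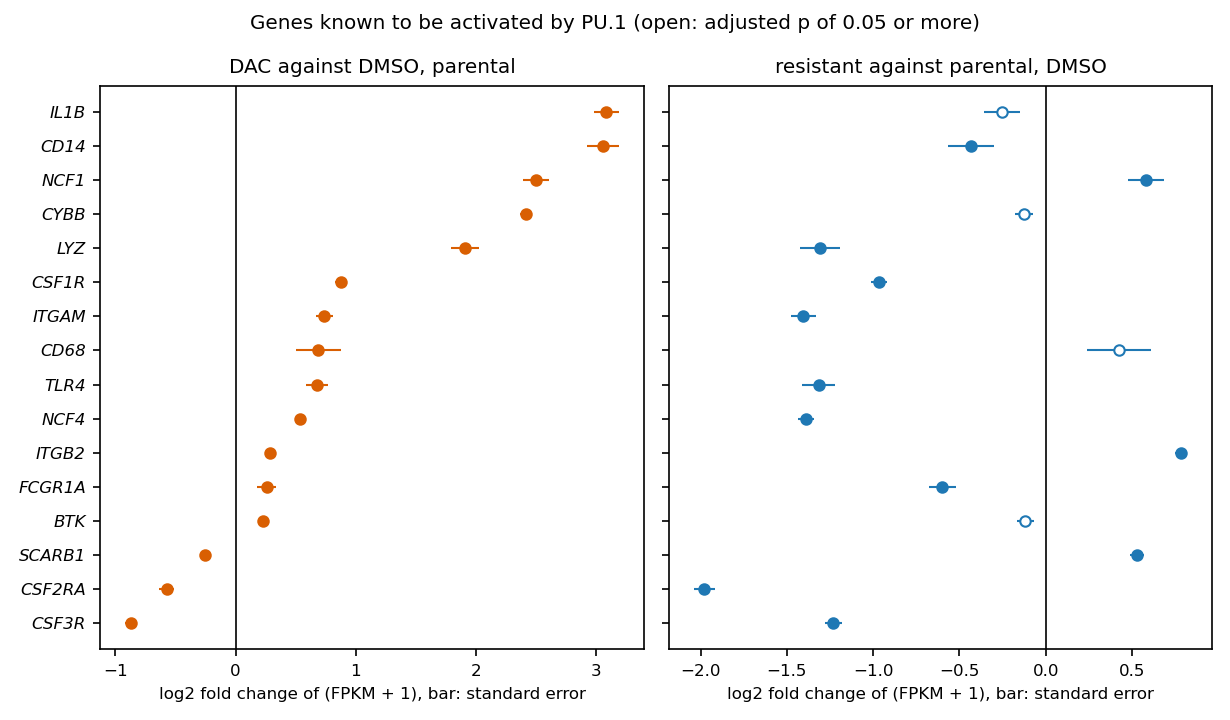
Log2 fold change of FPKM + 1 for 16 of the tested genes known to be activated by PU.1, with DAC in parental cells (left) and in resistant against parental cells with DMSO (right). Bars are standard errors and open points have an adjusted p of 0.05 or more. On the left 13 of these genes lie above 0 and 3 below, and on the right 9 of those that passed lie below 0 and 3 above.

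Markers of monocytic identity moved alongside, and CD14, LYZ, ITGAM, CSF1R, FCGR1A and CD68 stand in both lists. Of the 11 markers, 8 rose and 1 (CD33) fell with DAC in parental cells, and in resistant cells with DMSO 8 were lower and none higher. The marker CD86, among the 8 that rose, met the filter through parental cells with DAC alone. Their summed level was 163 to 168 FPKM in parental cells with DMSO, 258 to 270 FPKM with DAC, 97.3 to 98.9 FPKM in resistant cells with DMSO and 106 FPKM in both with DAC. What part the share of more mature cells has in the values of SPI1 or of its listed genes was not tested. Of other lineages, 6 mature neutrophil markers summed to 0.323 and 0.171 FPKM in parental cells with DMSO. With DAC they summed to 2.07 and 1.89 FPKM, mostly CAMP (1.32 and 1.22 FPKM). CAMP was the only one of them tested, and it met the filter of 1 FPKM through that group alone. Selection thus set its direction before the test. GATA1, the erythroid and megakaryocytic factor, rose from 0.106 and 0.133 to 3.39 and 2.71 FPKM with DAC in parental cells. It too met the filter through that group alone. EPOR, the erythropoietin receptor, fell in the same comparison from 3.98 to 2.03 FPKM (-0.72, adjusted p = 0.0021). The 5 megakaryocyte markers summed to 3.61 and 4.02 FPKM in parental cells with DMSO and to 7.73 and 8.70 FPKM with DAC. The 5 plasma cell markers measured summed to 2.34 and 2.56 FPKM in parental cells with DMSO, to 6.86 and 7.12 FPKM with DAC, and to 6.44 to 7.57 FPKM in the resistant libraries. Both of those tested, SDC1 and JCHAIN, rose with DAC in parental cells (1.06 and 0.98) and were higher in resistant cells with DMSO (1.01 and 0.93). The 5 B cell markers summed to 5.39 to 7.51 FPKM in parental and 1.57 to 2.95 FPKM in resistant libraries, and 9 erythroid markers to 4.22 to 7.23 FPKM over all libraries. The part of these markers in the values of the 9 genes was not tested.

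C/EBP proteins activate the genes of granule proteins, of which 11 of 16 listed were tested. With DAC in parental cells 5 rose and 5 fell, with a median of 0.09. CAMP, among the 5 that rose, met the filter through parental cells with DAC alone. The alarmins S100A9 (23.8 to 610 FPKM, log2 fold change 4.63, adjusted p = 2.6e-07) and S100A8 (5.14 to 85.5 FPKM, 3.82, adjusted p = 4.1e-07) and lysozyme (LYZ, 12.0 to 47.8 FPKM, 1.91, adjusted p = 2.3e-05) rose most. The primary granule proteases CTSG (105 to 51.4 FPKM, -1.02, adjusted p = 4.6e-06) and ELANE (106 to 80.8 FPKM, -0.39, adjusted p = 0.0015) fell, as did CSF3R. Between the cell lines with DMSO 2 of the 11 were higher and 5 lower in resistant cells, with a median of -0.22. The alarmins and both proteases stood the other way round from their change with DAC, with S100A9 at 3.79 FPKM (-2.37) and S100A8 at 0.762 FPKM (-1.80) lower and CTSG at 277 FPKM (1.39) and ELANE at 134 FPKM (0.33) higher in resistant cells. CSF3R was lower here too, at 12.3 against 30.1 FPKM (-1.23, adjusted p = 4.13e-06). DAC in resistant cells lowered the protease PRTN3 (84.3 to 71.6 FPKM, -0.23) and raised none of the 11. S100A8 also passed as lower (-0.72), but its means of 0.762 and 0.0703 FPKM were both below 1 FPKM, near the floor.

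MYC works as a heterodimer with MAX and is opposed by MXD proteins, MXI1 and MNT. Of 18 genes known to be activated by MYC, all were tested, and although MYC itself was lower by 47.0%, 12 rose and 6 fell with DAC in parental cells (median 0.38). The nucleolar genes RRP9 (0.93), PPAN (0.88) and NOP16 (0.74) rose most, and FBL, a nucleolar methyltransferase (35.2 to 21.5 FPKM, -0.69, adjusted p = 4.7e-05), NPM1, nucleophosmin (115 to 74.8 FPKM, -0.61, adjusted p = 1.9e-06), and CDK4 (-0.32) fell most. NPM1 has many processed pseudogenes, with which it may share reads. Between the cell lines with DMSO, where MYC did not pass, 13 of the 18 were higher in resistant cells and 1 (NPM1, -0.29) lower, with a median of 0.36. TERT, the catalytic subunit of telomerase and among the 13, went from 0.0977 to 8.45 FPKM. It met the filter through the resistant libraries alone, so selection set its direction before the test. ODC1, of polyamine synthesis, went from 9.18 to 26.9 FPKM (1.45, adjusted p = 1.4e-06). The list of the wider MYC network had 10 tested genes. MYCL (0.58), MXD1 (0.47) and MAX (0.46) were among 7 that rose with DAC in parental cells, and MXI1 (-0.59) fell. Resistant cells with DMSO had 4 genes of this list higher and 2 lower, with MXD4 changing most (9.37 to 4.58 FPKM, -0.90, adjusted p = 0.00012).

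Genes activated by MYB were listed together with other progenitor genes. Of 10 tested, 4 rose and 3 fell with DAC in parental cells, with a median of -0.07. The receptor tyrosine kinase KIT rose (0.92) and the anti-apoptotic gene BCL2 fell (-0.88, 23.8 to 12.5 FPKM), as did FLT3 (-0.31). Between the cell lines with DMSO 5 were higher and 4 lower in resistant cells, with FLT3 at 25.7 against 11.5 FPKM (1.09, adjusted p = 3.7e-05), KIT at 1.56 against 5.05 FPKM (-1.24, adjusted p = 6.6e-05) and LMO2 at 38.5 against 63.1 FPKM (-0.70, adjusted p = 2.7e-06). DAC lowered SPN (-0.27) and BCL2 (-0.26) in resistant cells, and raised none of the 10.

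RUNX1 binds DNA with CBFB and recruits co-repressors of the TLE and CBFA2T families. Of 9 tested genes of this list, 2 rose (RUNX3, 0.41, and KMT2A, 0.22) and 2 fell (RUNX2, -0.25, and TLE4, -0.18) with DAC in parental cells. RUNX2 was lower in resistant cells with DMSO, at 4.84 against 12.8 FPKM (-1.24, adjusted p = 1.4e-05), TLE4 by -0.48 and CBFB by -0.35, and CBFA2T3 (0.28), TLE3 (0.26) and RUNX3 (0.17) were higher. GFI1 represses through the demethylase KDM1A with RCOR1 and through histone deacetylases. All 8 listed co-repressor genes were tested, and in resistant cells with DMSO, where GFI1 was higher, 5 were higher and none lower (median 0.25), led by RCOR1 (0.37, adjusted p = 0.00018), the methyltransferase EHMT2 (0.36, adjusted p = 0.00047) and KDM1A (0.30, adjusted p = 0.00023). With DAC in parental cells 3 rose and 2 fell.

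Another 43 myeloid and stem cell transcription factors were tested, of 49 listed. With DAC in parental cells 29 rose and 6 fell (median 0.42), and in resistant cells 5 rose and 3 fell (median 0.01). Some of the 43 met the filter of 1 FPKM through parental cells with DAC or through the resistant libraries alone. Selection favours the direction of such genes, so all counts over this list are descriptions. Large rises in parental cells were those of GATA2, a stem and mast cell factor (3.31 to 35.0 FPKM, log2 fold change 3.06, adjusted p = 6e-07), and FOS, of AP-1 (6.02 to 22.6 FPKM, 1.75, adjusted p = 3.2e-06). The falls were led by CEBPG, a C/EBP protein that lacks an activation domain (56.8 to 29.9 FPKM, -0.91, adjusted p = 2.1e-06), IRF8, a monocyte lineage factor (45.4 to 27.9 FPKM, -0.68, adjusted p = 4e-05), and ETS2 (-0.34). CEBPG rose with DAC in resistant cells, from 65.1 to 94.2 FPKM (0.53, adjusted p = 0.00084). Of the 43, 16 were higher in resistant cells with DMSO, among them EGR1 (2.31) and JUN (1.66), and 9 lower, led by NFE2 (12.9 to 1.77 FPKM, -2.33, adjusted p = 5.1e-06), RUNX2 (-1.24) and ETS1 (-0.96). The difference between the DAC effects was higher in resistant cells for 6 of them and lower for 26, with a median of -0.45 against -0.05 over all genes.

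The genes most like each of the 9 in pattern were found by the Pearson correlation of log2(FPKM + 1) over the 8 libraries, among 2876 protein-coding genes that spanned at least 1 log2 unit. These values describe likeness, and the libraries fall into 4 groups, so any gene with the same 4 group levels will score high. SPI1 was most like ARAP3 (r = 0.997), FAM174B and GAPT, and CEBPE most like EBI3 (0.997), CPEB4 and SERPINA1. For GFI1 they were CBX5 (0.998), MAVS and TNN, and for RUNX1 PDGFRB (0.995), SERPINI1 and H1-2. MYC was followed by SCD (0.996), ACACA and RPLP0, and SCD, a fatty acid desaturase, went from 256 to 89.2 FPKM with DAC in parental cells and stood at 285 and 265 FPKM in the 2 resistant groups. KLF4 was closest to ESRP1 (0.977), PTER and TATDN1, CEBPA to TIMM13 (0.944), SLC27A3 and QTRT1, and CEBPB to GEM (0.933), RGS16 and HSBP1L1. MYB, which had the smallest span of the 9 over the 8 libraries (0.189 on the log2 scale), had no close match, with H4C1 at 0.673.

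Some members lie over other annotated genes, and the sources used here do not say whether reads were counted by strand. CEBPB-AS1 covers 231 exonic bases of CEBPB on the other strand (12.6% of its exons) and was at 0.0986 to 0.361 FPKM. MYB-AS1 covers 103 bases of MYB (1.87%) and was at 2.67 and 1.396 FPKM in parental cells with DMSO and at 0.282 and 0.371 FPKM in resistant cells with DMSO. CASC11, which covers 194 bases of MYC, did not pass 0.0448 FPKM, and the 2 long non-coding genes over CEBPA were at 0 in all libraries. Each of these levels was below that of the gene overlapped in every library. A further long non-coding gene, ENSG00000289987, covers 357 bases of KLF4 (9.75%) on the other strand, and its level was not analysed here.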

How the data were processed

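From total RNA of 8 samples the authors prepared mRNA libraries for sequencing, and, per the labels and the submitters' processing notes, they used FastQC, cutadapt 1.9.1, HISAT2 2.1.0, SAMtools 1.6, HTSeq 0.13.5 and genome build hg38. The authors deposited FPKM values written as FPKM multiplied by 1000, a scale read from the values, for 60664 genes and 1264 repeat families (not used here). Columns were assigned to samples by name, with 0 value columns left over. Positions and exon lengths came from GENCODE release 44. With them 87.11% of values were whole reads within a tolerance of 0.02. Intervals carry a confidence level of 95%.

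Deposited FPKM were divided by 1000, and genes that reached 1 FPKM in 2 or more libraries were kept (14899). For these, limma 3.58.1 (R 4.3.3) was run on log2(FPKM + 1) with a mean for each of the 4 groups and trended moderation of the variances (2.5 prior and 4 residual degrees of freedom). P-values were Benjamini-Hochberg adjusted over all genes tested, and a gene passed at an adjusted p under 0.05. All 9 members passed the filter. Some listed genes met it through a single group, as IL1B, CD86, CAMP and GATA1 did through parental cells with DAC. TERT met it through the resistant libraries alone. Selection favours the direction of such genes, so their calls are descriptions and not tests. The smallest p of an exact permutation test with 2 libraries against 2 is 0.333, and the model's p-values depend on the spread that genes share. The sample titles call the replicates biological, and p-values measure the spread between these libraries only. The 2 libraries of a group differed by more than sampling noise (chi-square per gene 4.03 to 4.28, no identical values).

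All 9 members are named. From each list, the up to 3 largest rises and 3 largest falls that passed could be named, and for each member the 3 genes most like it. Some genes that meet this rule are not reported here. GATA1, CD14, PTPRC and CD68 are named as markers. The members and lists were chosen with earlier results of these data known, so their counts are descriptions. Alternatives were a pseudocount of 0.1, no filter, a mean of at least 5 FPKM, TPM in place of FPKM, upper-quartile scaling, quantile normalization, a replicate block, a fit of the compared libraries alone, voom on recovered reads, the 2-fold thresholds and leaving out each library.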

Additional observations from a re-analysis of the deposited data

Results flagged for a closer look

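For 7 of the 9 genes the change with DAC was not the same in parental and resistant cells when the difference was itself tested (resistant minus parental, log2 scale, limma with Benjamini-Hochberg adjustment over all genes), where 20.9% of all genes had a higher and 28.4% a lower effect in resistant cells. The difference was -2.41 for CEBPE, 0.79 for MYC, -0.55 for RUNX1, 0.54 for KLF4, 0.29 for GFI1, -0.23 for CEBPA and -0.22 for SPI1. The calls of CEBPA and SPI1 were lost under upper-quartile scaling and on leaving out some single libraries. That of CEBPA was also lost with no filter, with TPM and with the replicate block. In CEBPE the effect in resistant cells rests on 9 and 26 reads with DAC and 14 and 11 with DMSO. KLF4 is the one gene among the 7 whose libraries moved in opposite directions without overlap, lower with DAC in parental cells (2.94 and 3.001 against 3.98 and 3.94 FPKM) and higher in resistant cells (4.07 and 4.06 against 3.45 and 3.25 FPKM, adjusted p = 0.0501). Groups of 2 libraries are too small for a test of single outlying samples.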

How the results depend on the processing

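Of 647 values of the 9 genes under all alternatives, 560 kept their direction and their side of the threshold, 50 no longer passed, 22 newly passed and 15 changed sign. None of the 419 values of changes that had passed changed sign. By the 2-fold thresholds 1, 0, 0, 1 and 1 genes were called for DAC in parental cells, DAC in resistant cells, the cell lines with DMSO, the cell lines with DAC and the difference between the DAC effects, in place of 8, 1, 6, 7 and 7. In resistant cells with DAC, 2 genes passed with a mean of at least 5 FPKM (which leaves 7 of the 9 genes, without CEBPE and KLF4), 3 with FPKM rescaled to TPM and 2 with voom, in place of 1, since KLF4 or MYB crossed the threshold. In the same order, 1970 of 7239, 1766 of 14899 and 2951 of 14785 genes passed over all genes tested. For the cell lines with DMSO and for the difference between the DAC effects, how many of the 9 genes passed depended on which library was left out. The restriction to the libraries compared gives no separate value for that difference.

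Changes of sign fell on values that had not passed. MYB with DAC in parental cells was 0.0058 under quantile normalization, and -0.0612 to 0.0331 without 1 library. In resistant cells with DAC, RUNX1 was -0.0041 under quantile normalization, -0.0050 under upper-quartile scaling and -0.0211 to 0.0278 without 1 library, CEBPA was -0.0389 to 0.1024 and CEBPE -0.1151 to 0.3547 without 1 library. For the cell lines with DMSO, MYC was -0.0409 under quantile normalization and -0.0196 under upper-quartile scaling, and MYB 0.0291 with TPM and -0.0885 to 0.0058 without 1 library. For the cell lines with DAC, CEBPA was 0.0281 with TPM and MYB -0.0197 under quantile normalization. The difference for CEBPB was -0.0075 to 0.0697 without 1 library. For MYB, upper-quartile scaling gave -0.13 with DAC in parental cells (adjusted p = 0.039). The cause was not tested.

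Scaling moved the median of all genes by -0.11 for DAC in parental cells and by 0.10 for the difference under quantile normalization, and by 0.11 for the cell lines with DAC under TPM, so changes of that size depend on it. The share of calls that were higher went from 58.2% to 45.1% under quantile normalization and 46.4% under upper-quartile scaling for DAC in parental cells, from 52.4% to 65.9% under TPM for DAC in resistant cells (48.2% and 48.1% under quantile normalization and upper-quartile scaling), and from 42.4% to 53.8% and 52.9% under the same 2 scalings for the difference. For the cell lines it moved by less but crossed 50%: from 54.4% to 44.7% under upper-quartile scaling with DMSO (61.1% under TPM), and from 47.7% to 56.5% under TPM and 53.8% under quantile normalization with DAC. Same-numbered libraries did not deviate together over all genes (correlations of -0.022 to 0.020). That shows no shared shift, and it cannot say whether the libraries were made in pairs. With the replicate block, 8, 1, 6, 7 and 6 genes passed, with 8364, 1247, 8375, 9820 and 7059 calls over all genes, and the one call it removed was the difference for CEBPA. CEBPE in resistant cells, at 9 to 26 reads, is where depth limits the values most.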
